A study of Mus musculus with 19 samples.

Results

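The genes of 7 nuclear receptors were examined in the kidney after ischemia-reperfusion: Ppara, Ppard, Rxra, Rxrb, Hnf4a, Hnf4g and Nr1h4. They were chosen by name, as the 7 entries of a 19287-entry expression table whose gene IDs belong to these symbols, and all 7 were expressed highly enough to be tested. The data came from kidney RNA of male C57BL/6 mice, an inbred strain, killed on day 5 after injury in the injured groups. In the group IR (n = 5 libraries) the blood supply of the kidney was interrupted and restored, and the group sham (n = 5) was the operated control. The group IRLacz (n = 4) had received Lactobacillus casei Zhang by oral gavage for 4 weeks before the injury. The group IRLac (n = 5) was taken to have received Lactobacillus acidophilus by the same route, which is the other strain of the design text, although that text shortens its name differently. No gavage is stated for sham or IR. No label ties each library to a mouse of its own, so the p-values measure the spread between these libraries, which may be technical in part.

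Nuclear receptors are transcription factors that bind small lipophilic molecules and act on short DNA repeats. The PPARs respond to fatty acids and pair with an RXR partner at the genes of fatty acid oxidation, which the proximal tubule of the kidney relies on for fuel. Hnf4a and Hnf4g encode receptors that bind DNA as pairs of their own kind and are known for driving epithelial genes of liver, gut and proximal tubule, and Nr1h4 encodes FXR, the bile acid receptor, which also pairs with RXR. In the authors' deposited transcription factor table, Ppara, Ppard and Nr1h4 were assigned to the family THR-like and Rxra, Rxrb, Hnf4a and Hnf4g to the family RXR-like.

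Values are FPKM, fragments scaled by gene length and by depth, so levels of different genes can be set side by side. FPKM totals lay between 545590 and 584798 per library, and read depth itself is unknown. Kidney markers were present: the summed level of 12 proximal tubule markers was 8448 to 9292 FPKM in sham, while 5 adipose markers summed to 0.61 FPKM or less in every library and 4 adrenal markers to 1.51 or less. The sum of 4 urothelium markers was less even. It ran from 2.89 to 19.08 FPKM in sham, 7.35 to 23.28 in IR, 4.43 to 12.22 in IRLac and 6.12 to 49.01 in IRLacz. The part of urothelium in the comparisons was not tested. Differences were tested with limma on the log2(FPKM + 1) scale over 13594 entries, with Benjamini-Hochberg adjustment within each comparison and a threshold of 0.05. On that scale the median of all tested entries was 0.29 higher in IR than in sham. The same median difference was 0.06 after median-ratio scaling and -0.06 after quantile normalization. The upward background of 0.29, beside which falls are set below, therefore depends on the scaling. In bulk tissue, fewer cells of a type and less RNA per cell cannot be told apart.

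The receptors differed in how many CG pairs the sequences at their start sites held, a property that the choice by name did not use. RefSeq windows of build GRCm38.p6 (250 bases before and 50 after each start) were matched for 6 of the 7 genes, with 9 windows in all and none for Hnf4g. The 60 bases just before the start of 4 genes are shown because they display this contrast, with each CG pair in capitals and each sequence 5′ to 3′ on the strand of its gene.
Ppara, chr15:85735716-85735775, plus strand: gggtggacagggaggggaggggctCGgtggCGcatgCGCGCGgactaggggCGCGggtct
Ppard, chr17:28232694-28232753, plus strand: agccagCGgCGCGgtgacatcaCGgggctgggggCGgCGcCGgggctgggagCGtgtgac
Hnf4a, chr2:163506797-163506856, plus strand: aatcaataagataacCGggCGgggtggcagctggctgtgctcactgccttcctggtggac
Nr1h4, chr10:89506659-89506718, minus strand: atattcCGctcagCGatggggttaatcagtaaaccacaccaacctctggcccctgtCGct

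Over the whole window of 300 bases, Ppara held 30 CG pairs and Ppard 27, which was more than in 88.3% and 84.5% of all 32851 windows. The first Rxra window held 55 and the Rxrb windows 37 and 47. Hnf4a, the receptor best known for its restricted expression, held 4 in each of its 2 windows, and Nr1h4 held 7, against a median of 7 over all windows. The second Rxra window held 1.

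Binding letters of this receptor class were searched on both strands of the same windows. The direct repeat of AGGTCA with 1 base between the copies, the arrangement used by PPAR with RXR, its inverted repeat with 1 base between, the arrangement used by FXR with RXR, and CAAAGTCCA, a sequence favoured by HNF4, were in none of the 9 windows. They were rare in general, in 0.0396%, 0.00913% and 0.475% of all windows. In gene lists described below, the direct repeat was in 0 of 30 windows of PPAR targets and the inverted repeat in 0 of 11 of FXR targets. CAAAGTCCA was in 0 of 22 windows of HNF4-dependent genes and in 1 of the 11 of FXR targets. The single half-site AGGTCA, which both repeats contain, was in 16.3% of all windows and in 2 of the 9. It occurred in the windows of 10 of 30 start sites of the PPAR target list, 7 of 22 of the HNF4-dependent list, 5 of 11 of the FXR target list, 7 of 28 of related nuclear receptors and 1 of 14 of coregulators. The matches in the receptor windows and in 3 genes described below are shown with 12 bases on each side and the half-site in capitals, written TGACCT where it lies on the strand opposite to the gene.
Rxra second start, chr2:27709193-27709222, plus strand: tagaaatgggtgTGACCTgagtaatggtca
Rxra second start, chr2:27709232-27709261, plus strand: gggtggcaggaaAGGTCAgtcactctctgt
Nr1h4, chr10:89506855-89506884, minus strand: ccgtgtggcattTGACCTccagccagtctt
Cpt1a, chr19:3323195-3323224, plus strand: cagtttccttacTGACCTcctccccgcagc
G6pc, chr11:101367650-101367679, plus strand: tcagggctggatTGACCTacagactgaatc
Slc51a, chr16:32487920-32487949, minus strand: tccttctcttctTGACCTatcagggaattt

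These are matches of letters only, and the windows leave out distant enhancers.

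The receptors covered a wide range of levels in the uninjured kidney. Hnf4a was the most abundant at 212.4 ± 14.9 FPKM (SD, n = 5, sham), followed by Nr1h4 at 57.1 ± 11.8 and Rxra at 44.4 ± 1.96. Ppara at 17.7 ± 1.29, Ppard at 16.3 ± 4.69 and Rxrb at 15.5 ± 6.08 lay close together, and Hnf4g was the least abundant at 2.61 ± 0.308. The neighbours Nr1h4 and Rxra, Ppara and Ppard, and Ppard and Rxrb had overlapping library ranges, so their order is not fixed by these data. The level of Hnf4a was 81.9 ± 7.87 times that of Hnf4g per length in sham (n = 5), and the ratio was 71.1 ± 10.2 in IR (n = 5), 81.2 ± 18 in IRLac (n = 5) and 82.7 ± 19 in IRLacz (n = 4). Within each group Hnf4a remained the highest and Hnf4g had the lowest mean.

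Injury was examined by setting IR beside sham. Of the 7 receptors 6 fell and 0 rose, where 18.6% of all tested entries fell, 57% rose and 75.6% passed in either direction. In 4 of the 7, namely Ppara, Ppard, Rxra and Hnf4a, every IR library lay below every sham library, a pattern shown by 15.2% of tested entries. The falls ranged from 0.28 on the log2 scale for Hnf4g to 2.71 for Ppard. Each of the 6 was also called lower after median-ratio scaling and after quantile normalization. After those scalings, 4242 and 5294 of the 13594 tested entries were called lower, against 2529 without them. Those called higher were 5300 and 4222, against 7747. The shares of all entries given here and for the lists below are those without such scaling.

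**Figure D1:**
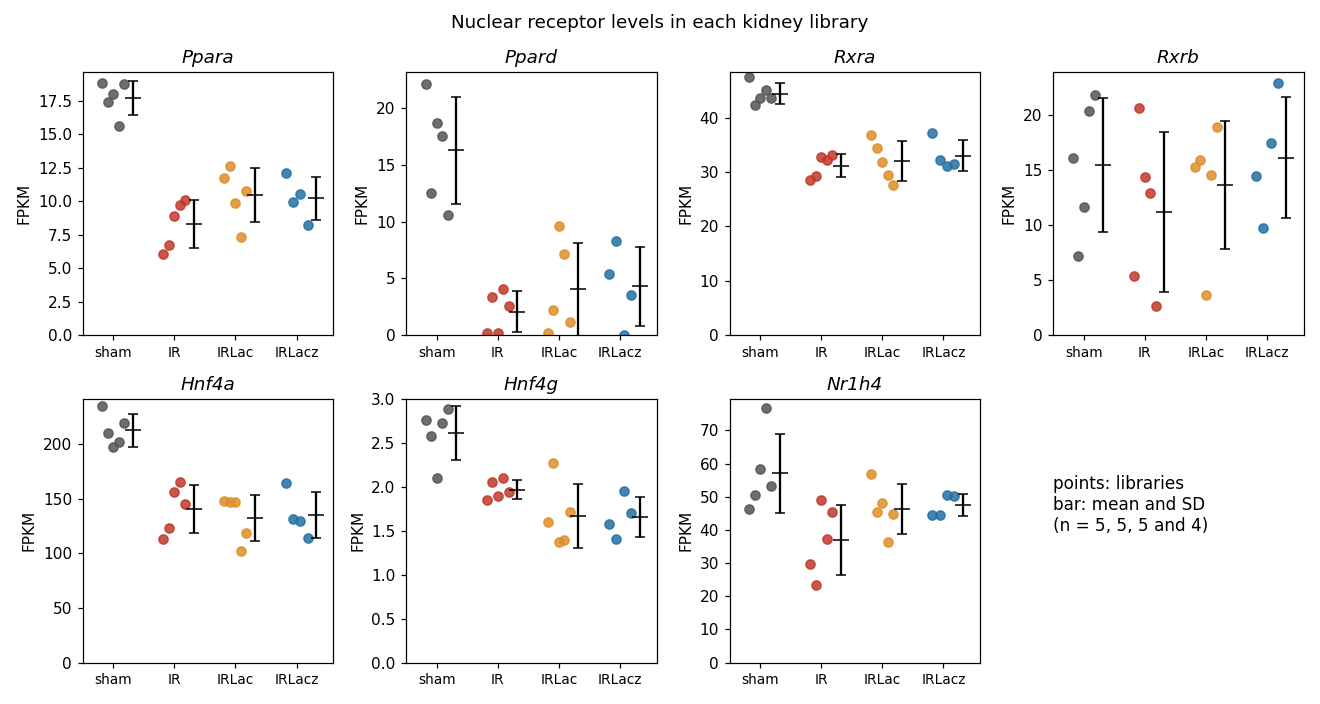
FPKM (vertical axes, from 0) of the 7 receptors in each of the 19 kidney libraries, by group (horizontal axes), with the mean and SD beside the points and bars cut at 0. All IR libraries of Ppara, Ppard, Rxra and Hnf4a lie below all sham libraries, and the points of Ppard and Rxrb are widely scattered.

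Ppara (gene ID 19013) encodes the fatty acid receptor best known for switching on fatty acid oxidation. It was at 18.78, 17.37, 17.98, 15.63 and 18.73 FPKM in the sham libraries and at 6.03, 6.76, 8.92, 9.75 and 10.05 in IR. The groups did not overlap, and the highest IR library was well under the lowest sham library. The mean fell from 17.7 ± 1.29 to 8.30 ± 1.81 FPKM (n = 5 and 5), 53.1% lower, a log2(FPKM + 1) change of -1.03 (SE 0.14, limma adjusted p = 2.81e-06). With gavage, values were 11.7, 12.65, 9.89, 7.33 and 10.78 in IRLac and 12.1, 9.96, 10.55 and 8.2 in IRLacz. These 2 groups overlapped IR, and neither reached the lowest sham library.

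Ppard (19015) encodes the broadly expressed fatty acid receptor of the family. Its sham values were 22.07, 12.5, 18.69, 17.55 and 10.55 FPKM, and its IR values 0.19, 3.33, 0.19, 4.08 and 2.56. It had the largest difference of the 7, a fall of 2.71 on the log2 scale (SE 0.62, limma adjusted p = 0.000719, means 16.3 ± 4.69 and 2.07 ± 1.8, n = 5 and 5), with no overlap. IRLac had 0.21, 2.19, 9.59, 7.13 and 1.13, and IRLacz 5.38, 8.32, 0 and 3.51. Every injured library lay below the lowest sham library, and each gavaged group ran from near 0 to values above the highest IR library. Whether the 0 listed for Ppard in 1 IRLacz library is a failed estimate was not tested. Values near it occurred in other injured libraries, at 0.19 and 0.19 FPKM in IR and 0.21 in IRLac. A library at 0 beside a median over libraries above 5 FPKM occurred in 27 entries, and Ppard was not among them.

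Rxra (20181) encodes the shared heterodimer partner of the PPARs and FXR, and the most abundant RXR here. It was at 47.4, 42.29, 43.52, 45.08 and 43.54 FPKM in sham and at 28.48, 29.2, 32.71, 32.21 and 33.12 in IR. Both groups were tight and apart from each other. Rxra fell by 29.8%, from 44.4 ± 1.96 to 31.1 ± 2.14 FPKM (n = 5 and 5), a log2(FPKM + 1) change of -0.50 (SE 0.073, limma adjusted p = 7.55e-06). This difference was -0.77 after median-ratio scaling. In IRLac it was at 36.74, 34.45, 31.74, 29.49 and 27.6, and in IRLacz at 37.22, 32.11, 31.13 and 31.47. All of these lay below the lowest sham library.

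Rxrb (20182) encodes the second RXR and was the 1 receptor of the 7 that did not pass. Sham libraries held 16.13, 7.23, 11.68, 20.4 and 21.85 FPKM and IR libraries 5.38, 20.7, 14.38, 12.92 and 2.65. The groups overlapped over most of their range. The log2 difference was -0.60 with a 95% interval from -1.56 to 0.35 (limma adjusted p = 0.235), so a fall as large as that of Ppara lies within the interval. IRLac libraries held 15.28, 15.91, 3.63, 14.53 and 18.93, and IRLacz libraries 14.45, 9.76, 17.44 and 22.94. The third RXR gene, Rxrg, reached at most 0.33 FPKM in any library and was not tested.

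Hnf4a (15378) encodes the epithelial receptor that maintains proximal tubule genes. It was at 234.35, 209.66, 196.84, 202.04 and 219.01 FPKM in sham and at 112.95, 122.66, 155.66, 164.81 and 144.58 in IR. The groups did not overlap. Hnf4a fell by 34% (212.4 ± 14.9 to 140.1 ± 21.9, n = 5 and 5), a log2(FPKM + 1) change of -0.61 (SE 0.12, limma adjusted p = 0.000195). Values in IRLac were 147.68, 147.07, 147.02, 102.01 and 118.2, and in IRLacz 164.5, 131.51, 129.38 and 113.83, all within or below the IR range.

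Hnf4g (30942), its paralog, had low values throughout. It was at 2.77, 2.58, 2.1, 2.73 and 2.89 FPKM in sham and at 1.85, 2.06, 1.9, 2.1 and 1.94 in IR. The ranges touched at 2.1 FPKM. It fell by 0.28 on the log2 scale (SE 0.091, limma adjusted p = 0.0098, 2.61 ± 0.308 to 1.97 ± 0.106 FPKM, n = 5 and 5), or by 0.47 after median-ratio scaling and 0.80 after quantile normalization, and a pseudocount of 1 understates a change at this level. The gavaged groups were at 1.6, 2.27, 1.37, 1.4 and 1.72 in IRLac and 1.58, 1.41, 1.95 and 1.7 in IRLacz. Of these 9 libraries 7 lay below the lowest IR library, and 1, IRLac replicate 2, exceeded the lowest sham value.

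Nr1h4 (20186), the bile acid receptor gene, fell in IR and varied more than most genes of its level. Sham libraries were at 46.41, 50.62, 58.42, 76.78 and 53.17 FPKM and IR libraries at 29.63, 23.42, 48.93, 37.33 and 45.41. A single IR library, replicate 3, reached into the sham range. The log2 difference was -0.64 (SE 0.17, limma adjusted p = 0.00228, 57.1 ± 11.8 to 36.9 ± 10.6 FPKM, n = 5 and 5). IRLac libraries were at 56.94, 45.36, 48.03, 36.22 and 44.82 and IRLacz libraries at 44.43, 44.6, 50.45 and 50.18. Both gavaged groups overlapped sham.

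Markers of tubule cells moved in the same comparison. Of the proximal tubule 12 of 12 fell (median log2 difference -1.11), with a summed level of 3169 to 4619 FPKM in IR against 8448 to 9292 in sham, while the 6 markers of injured proximal tubule all rose (median 4.43). Markers also fell for the distal convoluted tubule (4 of 4, median -1.59), intercalated cells (4 of 5, -0.59), collecting duct principal cells (3 of 6, -0.38), the thick ascending limb (2 of 5, -0.74) and podocytes (3 of 5, with 1 higher, -0.26). Those of the thin limb (2 of 4 higher, 1 lower, median 0.36) and of endothelium (3 of 6 higher, 2 lower, 0.20) went both ways. The 6 macrophage and monocyte markers all rose, from a summed 64.4 to 85.4 FPKM in sham to 870.5 to 1266 in IR, as did the 6 fibroblast and pericyte markers (63.6 to 89.0 against 599.4 to 731.5 FPKM). The part of these cell populations in the falls of the receptors was not tested.

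The gavage comparisons asked whether a Lactobacillus strain given beforehand changed the receptors in injured kidneys. None of the 7 passed in IRLacz against IR under limma, where 13.3% of all tested entries passed. An unadjusted p under 0.05 was reached by 1 of the 7, Nr1h4, and by 4171 of the 13594 tested entries, a larger share. Nr1h4 was at 47.4 ± 3.35 FPKM in IRLacz (n = 4) and 36.9 ± 10.6 in IR (n = 5), a log2 difference of 0.40 with a 95% interval from 0.021 to 0.78 (limma adjusted p = 0.142). The IRLacz libraries ran from 44.43 to 50.45 FPKM and the IR libraries from 23.42 to 48.93, so the groups overlapped. For Nr1h4 a rise as large as its fall with injury lies within the interval. Ppara was at 10.2 ± 1.61 against 8.30 ± 1.81 FPKM, a difference of 0.28 (95% interval -0.03 to 0.59, limma adjusted p = 0.203). A rise of Ppara as large as its fall with injury lies outside the interval. Rxra differed by 0.079 (interval -0.08 to 0.24) and Hnf4a by -0.054 (interval -0.33 to 0.22), so for these 2 receptors a change as large as their fall with injury lies outside the interval. The same holds for Ppard (0.66, interval -0.73 to 2.04), whose interval is wide but ends short of its fall of 2.71 with injury. For Rxrb (0.70, interval -0.32 to 1.71) a change as large as its difference with injury lies within the interval. Hnf4g differed by -0.16 (interval -0.37 to 0.04), so a rise as large as its fall with injury lies outside the interval.

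In IRLac against IR, 0 of 7 passed under limma, where 0.00736% of tested entries (a single one) passed. An unadjusted p under 0.05 was reached by 786 of the 13594 tested entries. Ppara had an unadjusted p under 0.05 (10.5 ± 2.04 against 8.30 ± 1.81 FPKM, n = 5 and 5, log2 difference 0.31, 95% interval 0.015 to 0.60, limma adjusted p = 0.836). Nr1h4 differed by 0.35 (interval -0.004 to 0.71) and Hnf4a by -0.083 (interval -0.34 to 0.17). IRLacz and IRLac were also compared with each other, which tests whether the strains differ. Here 0 of 7 passed under limma, where 0.0221% of tested entries passed. An unadjusted p under 0.05 was reached by 0 of the 7 and by 2171 of the 13594 tested entries. The 7 differences lay between -0.026 for Ppara and 0.32 for Rxrb, with the narrowest intervals for Rxra (-0.12 to 0.21) and Hnf4g (-0.20 to 0.20). The comparisons with IR share the same IR libraries.

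Against sham, both gavaged groups had 5 receptors lower, namely Ppara, Ppard, Rxra, Hnf4a and Hnf4g. In IRLacz against sham 13.5% of all tested entries were lower and 70.3% passed in either direction, and in IRLac against sham 16.8% and 74.8%. The 2 comparisons and that of IR use the same sham libraries. Ppara was lower by 42.4% in IRLacz (log2 difference -0.75, SE 0.15, limma adjusted p = 0.000227) and by 40.8% in IRLac (-0.72, SE 0.14, 0.000136). Hnf4a was lower by 36.5% and 37.7% and Rxra by 25.7% and 27.9%. Ppard was lower by 73.6% and 75.1%, and its call in IRLacz was lost without IRLacz replicate 3, the library listed at 0 (log2 difference -1.38, limma adjusted p = 0.0588). Nr1h4 did not pass in either: it was at 47.4 ± 3.35 FPKM in IRLacz (-0.24, interval -0.62 to 0.13, limma adjusted p = 0.232) and 46.3 ± 7.43 in IRLac (-0.29, interval -0.65 to 0.07, 0.129), against 57.1 ± 11.8 in sham. After median-ratio scaling it passed in both (-0.51, limma adjusted p = 0.0218, and -0.57, 0.00718).

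**Figure D2:**
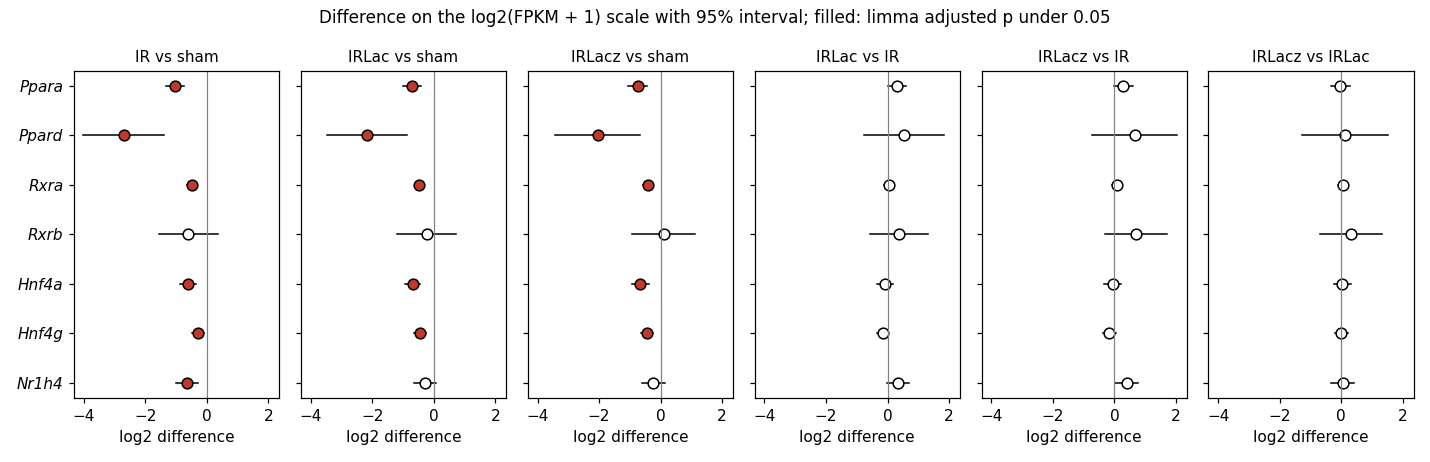
Log2 differences on the log2(FPKM + 1) scale (horizontal axes) of the 7 receptors (rows) in the 6 comparisons (panels), with 95% intervals and filled points where the limma adjusted p was under 0.05. Filled points occur only in the 3 comparisons with sham, and the intervals of Ppard and Rxrb are the widest.

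The receptors differed in how far libraries of a group lay apart. The pooled within-group SD of Ppard was 1.09 on the log2 scale, above 99.8% of the 2473 tested entries with a mean within 0.5 of its own, whose median SD was 0.18. Rxrb, at 0.80, was above 99.5% of 2825 such entries (median 0.14). Nr1h4 (0.29, above 90.5%) and Ppara (0.23, above 85.5%) were moderately variable, and Hnf4a (0.20, above 66.5%), Rxra (0.12, above 41.9%) and Hnf4g (0.13, above 14%) were near or under the middle of their level. In sham alone Ppard ran from 10.55 to 22.07 FPKM and Rxrb from 7.23 to 21.85, so some scatter was present without injury. For Ppard it was smaller there: the SD was 28.8% of the mean in sham, 86.9% in IR, 101% in IRLac and 81% in IRLacz. For Rxrb the SD was 39.3%, 64.7%, 42.8% and 34.2% of the mean in the same groups. Whether reads of Ppard and Rxrb were split between transcripts or neighbouring entries was not tested.

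**Figure D3:**
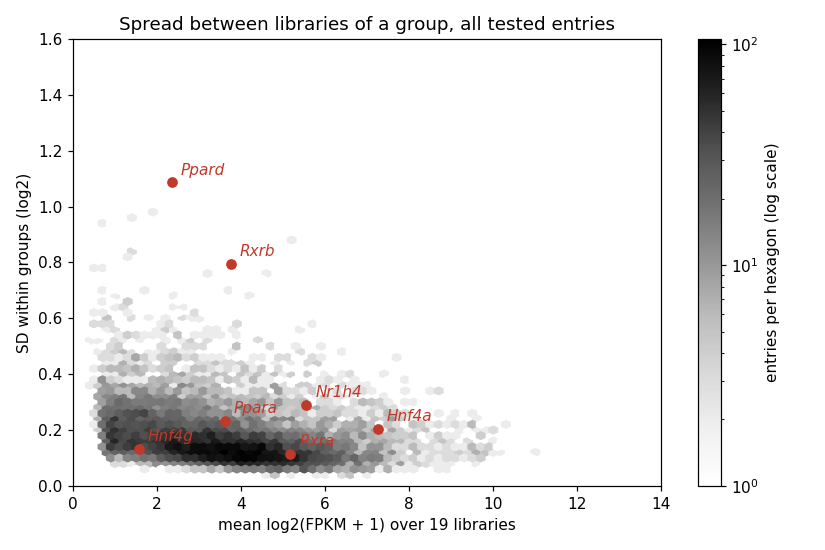
Within-group SD (vertical axis, log2) against mean log2(FPKM + 1) (horizontal axis) of all 13594 tested entries as hexagons shaded by the number of entries, with the 7 receptors as red points. Ppard at 1.09 and Rxrb at 0.80 stand above nearly all entries of their level, while the other 5 lie within the shaded body.

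Some receptors moved together from one injured library to the next. Over the 14 libraries of the 3 injured groups, 21 pairs were compared, and 3 passed after adjustment. Rxra and Hnf4a had r = 0.758 (permutation p = 0.00186, Benjamini-Hochberg adjusted 0.037) and rho = 0.815 (permutation p = 0.00077, adjusted 0.0162), with r = 0.70 without the 2 libraries farthest from the median of Rxra and 0.826 within groups. This pair held in every form examined. Ppara and Rxra had r = 0.686 (permutation p = 0.00668, adjusted 0.0468) and rho = 0.613 (permutation p = 0.0219, adjusted 0.23), with 0.559 without the 2 farthest libraries and 0.702 within groups. Ppara and Nr1h4 had r = 0.732 (permutation p = 0.00352, adjusted 0.037) and rho = 0.455 (permutation p = 0.105, adjusted 0.44), but r was 0.375 without IR replicates 1 and 2, and this relation rests on those libraries. Within groups its r was 0.631, which did not pass (permutation p = 0.0145, adjusted 0.0763). Ppara and Hnf4a had r = 0.655 (permutation p = 0.0114, adjusted 0.0596) and rho = 0.525 (permutation p = 0.0567, adjusted 0.298), with 0.599 without the same 2 libraries. Within groups their r was 0.874 (permutation p = 0.00011, adjusted 0.00231). Ppard, Rxrb and Hnf4g were in none of the passing pairs. The summed level of the proximal tubule markers also varied among these libraries, from 3169 to 4619 FPKM in IR, 3118 to 5268 in IRLac and 2538 to 6211 in IRLacz. Their part in these correlations was not tested, and neither was how often pairs of other entries pass.

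**Figure D4:**
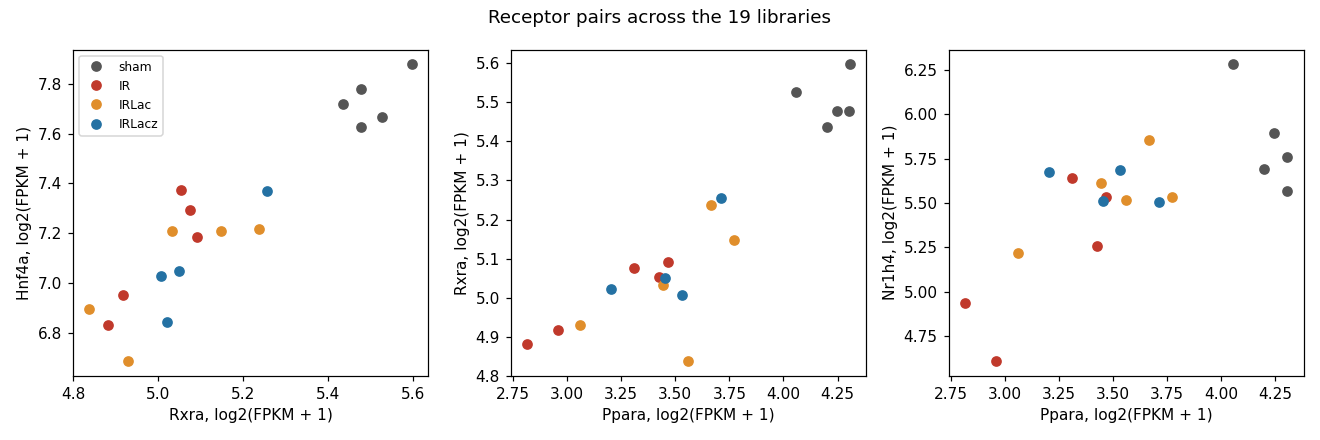
Log2(FPKM + 1) of Hnf4a against Rxra, of Rxra against Ppara and of Nr1h4 against Ppara (axes) in the 19 libraries, coloured by group. The sham libraries lie at the upper right of the first 2 panels. In the third panel they lie at the right, and their Nr1h4 values overlap those of injured libraries. There IR replicates 1 and 2, at the lower left, set much of the slope among injured libraries.

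The entries whose values most resembled each receptor over the 14 injured libraries, among 13593 others, are given as a description. Closest to Hnf4a were Arsb, a lysosomal sulfatase gene (r = 0.915), Abcg2, an efflux transporter gene (0.906), and Fmo1, a monooxygenase gene (0.901). Closest to Ppara were the polarity gene Pard3 (0.915), the lysosomal transporter gene Mfsd1 (0.905) and Cldn2, the claudin of the leaky proximal tubule (0.902). Closest to Rxra were C2cd2l (0.899), Gatm, the first enzyme of creatine synthesis (0.894), and Prodh, a proline-degrading mitochondrial enzyme (0.891). Closest to Ppard was Caskin2 (0.879), to Rxrb Tmem62 (0.855) and to Hnf4g the mitochondrial channel gene Vdac3 (0.868). The value of Tmem62 dropped to 0.608 without the 2 libraries farthest from the median of Rxrb. For Nr1h4 the closest was a locus without a gene name (0.889), then Klf9 (0.863) and Mtus1 (0.834). Without the 2 farthest libraries these dropped to 0.739, 0.59 and 0.463. No other receptor of the 7 was among the 3 closest to any of them.

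Related receptors went both ways with injury. Of 16 tested (19 listed), 8 rose, 5 fell and 3 did not pass (median log2 difference 0.15, against 0.29 over all entries). Of all tested entries 57% rose and 18.6% fell. Nr2f1, an orphan receptor that binds similar repeats, rose from 0.374 ± 0.165 to 1.88 ± 0.262 FPKM (n = 5 and 5), its relative Nr2f2 from 21.8 ± 1.67 to 30.7 ± 2.16, and the retinoic acid receptor gene Rara from 10.9 ± 0.198 to 17.6 ± 1.28. Nr1h3, an oxysterol receptor gene, fell from 42.8 ± 1.71 to 27.6 ± 2.22 FPKM, Vdr, the vitamin D receptor gene, from 68.7 ± 3.87 to 38.1 ± 9.37, and the thyroid receptor gene Thrb from 5.55 ± 0.566 to 3.06 ± 0.782. These 6 had limma adjusted p between 2.55e-07 and 4.73e-05. Pparg, the PPAR of fat cells, rose from a very low 0.64 ± 0.163 to 1.46 ± 0.631 FPKM (log2 difference 0.56, limma adjusted p = 0.00255), a call lost after quantile normalization (0.959). The count of higher members was 5 after median-ratio scaling and 4 after quantile normalization.

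Coregulators, the proteins through which these receptors act on transcription, were tested as a list of 18, of which 8 rose, 4 fell and 6 did not pass (median log2 difference 0.12, against 0.29 over all entries, of which 57% rose and 18.6% fell). These shares are not far from those of all entries. The direction of this list turned with scaling, to 5 higher and 8 lower after median-ratio scaling and 2 and 11 after quantile normalization. Ppargc1a, the coactivator that drives mitochondrial genes with PPARs, fell from 10.3 ± 1.12 to 5.87 ± 0.942 FPKM, its relative Ppargc1b from 3.21 ± 0.418 to 1.90 ± 0.2 and Lpin1, a phosphatase that also coactivates Ppara, from 15.2 ± 0.943 to 7.48 ± 1.66 (limma adjusted p 8.58e-05, 0.000163 and 8.29e-07). The deacetylase gene Hdac3 rose from 20.8 ± 0.805 to 27.3 ± 1.07 FPKM and the methyltransferase gene Carm1 from 12.4 ± 0.926 to 20.7 ± 0.492 (limma adjusted p 2.49e-05 and 6.87e-08). The Hdac3 call was lost after quantile normalization (0.0501).

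The genes that PPARs are known to act on were mostly lower. Of 33 tested (36 listed), 26 fell, 1 rose and 6 did not pass, with a median log2 difference of -0.76 against 0.29 over all entries. Of all tested entries 18.6% fell and 57% rose. The 12 proximal tubule markers fell in the same libraries, as given above, and their part was not tested. Ehhadh, a peroxisomal oxidation enzyme, went from 331.3 ± 12 to 84.0 ± 20 FPKM, and Cpt1a, which admits fatty acids to mitochondria, from 122.9 ± 6.1 to 67.4 ± 8.27. Acsl1, which activates fatty acids, went from 69.7 ± 4.1 to 31.96 ± 4.82 (all n = 5 and 5, limma adjusted p from 4.67e-08 to 2.85e-07). The 1 member that rose was Plin2, a lipid droplet coat protein gene, from 51.2 ± 3.29 to 134.4 ± 30.2 FPKM (limma adjusted p = 2.87e-06). The number that rose was 2 without sham replicate 4, 2 with a pseudocount of 0.1 and 3 without the filter on low values. The classical PPAR targets Angptl4 (0.01) and Cyp4a14 (0.72) did not pass, and the PPAR-induced hormone gene Fgf21 was at 0.32 FPKM or less in every library.

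The HNF4-dependent list had a median of -1.04, against 0.29 over all entries, of which 18.6% fell and 57% rose. Of the list, 17 of 22 tested genes (24 listed) were lower, 2 higher and 3 did not pass. It shares 5 genes with the 12 proximal tubule markers, and so is not independent of them. G6pc, the last enzyme of glucose release, went from 333 ± 59.6 to 43.3 ± 11.4 FPKM, Lrp2, the endocytic receptor megalin, from 141.1 ± 11 to 56.8 ± 9.9, and Mttp, which loads lipoproteins, from 6.14 ± 0.507 to 2.64 ± 0.543 (n = 5 and 5, limma adjusted p 4.18e-08, 2.66e-07 and 1.78e-07). Cdhr5 (121.6 ± 7.9 to 141.4 ± 16.8) and Pklr (14.1 ± 1.57 to 19.9 ± 1.66) were the 2 called higher. Neither kept its call in all fits: after median-ratio scaling Cdhr5 was at -0.061 and Pklr at 0.22 (limma adjusted p 0.486 and 0.244), and they missed the threshold without IR replicate 1 (0.0664) and without sham replicate 4 (0.0564) respectively.

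Of the FXR target list, 9 of 16 genes were tested, of which 5 fell, 3 rose and 1 did not pass (median log2 difference -0.40, against 0.29 over all entries, of which 18.6% fell and 57% rose). The falls included the pair of subunit genes of the basolateral bile acid exporter, Slc51a (42.0 ± 2.82 to 23.7 ± 4.18 FPKM) and Slc51b (37.7 ± 2.76 to 26.6 ± 3.47), and the apical exporter Abcc2 (62.0 ± 6.68 to 40.5 ± 6.13), with limma adjusted p from 0.000969 to 0.00355 (n = 5 and 5). Nr0b2, the repressor gene that FXR induces in liver, was low and fell from 2.19 ± 0.869 to 0.972 ± 0.321 FPKM (limma adjusted p = 0.0191), a call lost without sham replicate 3 (0.0643). The risers Sdc1 (4.50 ± 0.551 to 23.9 ± 1.72), Pltp (7.38 ± 0.941 to 30.0 ± 3.68) and Apoc2 (listed at 0 in most sham libraries, 9.52 ± 2.29 in IR) encode a cell surface proteoglycan, a lipid transfer protein and an apolipoprotein. Macrophage markers rose in the same libraries, as given above, and their part was not tested.

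**Figure D5:**
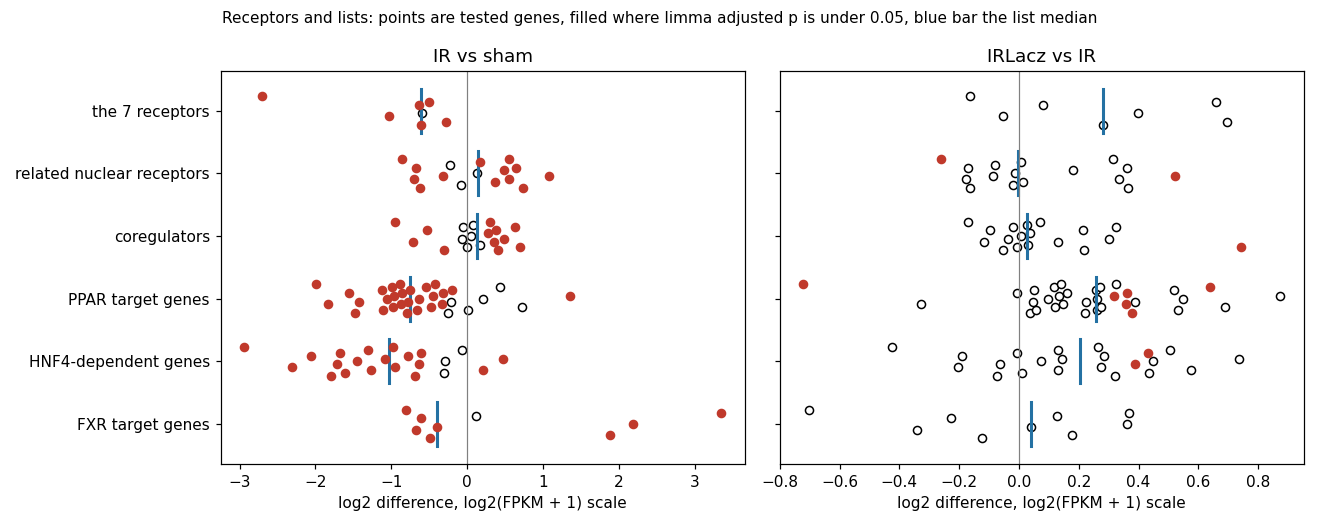
Log2 differences on the log2(FPKM + 1) scale (horizontal axes) of the tested receptors and genes of 5 lists (rows) in IR against sham and in IRLacz against IR (panels, with different axis ranges), filled where the limma adjusted p was under 0.05, with the list median as a blue bar. In IR against sham the PPAR and HNF4 lists lie mostly below 0, with medians of -0.76 and -1.04, and in IRLacz against IR most points are open.

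In IRLacz against IR, few genes of these lists passed. The PPAR target list had 5 higher and 1 lower of 33 (median 0.26, against -0.004 over all entries, of which 5.39% were higher and 7.92% lower). Hadha, an enzyme of mitochondrial oxidation, was at 61.7 ± 4.41 FPKM in IRLacz (n = 4) against 49.3 ± 2.77 in IR (n = 5, limma adjusted p = 0.00908), and Plin5, a coat protein of oxidative tissue, at 3.14 ± 0.369 against 1.67 ± 0.348 (0.00914). Cpt1a was at 87.1 ± 12.7 against 67.4 ± 8.27 (limma adjusted p = 0.0272, not called in a fit of the 2 groups alone, 0.0816). Plin2, which had risen with injury, was lower, at 80.7 ± 15.5 against 134.4 ± 30.2 FPKM (limma adjusted p = 0.0232, and 0.0702 without IR replicate 3). The number of higher PPAR targets ran from 2 to 8 when single libraries were left out, was 2 in a fit of the 2 groups alone and 11 with library weights.

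Ppargc1a was the 1 coregulator that passed, at 10.5 ± 1.53 FPKM in IRLacz against 5.87 ± 0.942 in IR (n = 4 and 5, log2 difference 0.74, limma adjusted p = 0.00634), without overlap and near its sham level of 10.3 ± 1.12. Its partner Ppara was at 10.2 ± 1.61 FPKM in IRLacz, against 17.7 ± 1.29 in sham. Among related receptors, Nr3c2, the aldosterone receptor gene, was higher (2.95 ± 0.308 against 1.77 ± 0.369, limma adjusted p = 0.0188) and Nr2f6 lower (110.8 ± 4.17 against 133.2 ± 7.94, 0.0386). Of the HNF4-dependent list 2 of 22 genes were higher and 0 lower, among them the transporter gene Abcc6 (3.21 ± 0.494 against 2.15 ± 0.608, limma adjusted p = 0.0438), and the count was 0 in a fit of the 2 groups alone (0.0994 for Abcc6). With single libraries left out, Nr3c2 missed the threshold without IR replicate 3 (0.0593), and Nr2f6, Cpt1a, Plin2 and Abcc6 when one or another library was left out, IR replicates 2 and 3 and IRLacz replicates 1 and 2 for each of these genes (limma adjusted p up to 0.0954, 0.0891, 0.0704 and 0.12). Slc51a, not called here, passed without IRLacz replicate 4 (limma adjusted p = 0.0172), and the HNF4-dependent genes called higher then numbered 5. In the same comparison 4 of 6 macrophage markers and 4 of 6 fibroblast markers were lower, and 0 of 12 proximal tubule markers passed. Markers of other tubule segments were higher, 3 of 5 of intercalated cells (median log2 difference 0.54), 2 of 6 of collecting duct principal cells (0.66) and 1 of 4 of the distal convoluted tubule (1.06), as were 2 of 5 podocyte markers (0.25). Their part in these differences was not tested. No gene of the 5 lists passed in IRLac against IR under limma. None passed in the direct comparison of IRLacz with IRLac either, so the calls in IRLacz do not show a difference between the strains.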

How the data were processed

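The authors deposited a table of FPKM values with 2 decimals for 19287 entries in 19 libraries. The build mm9 and the tools HISAT and StringTie 1.0.4 are named in the submitters' processing notes, without their roles. Annotation, strand and shared reads are not described in the sources used here, and no batch is labelled. The authors' deposited transcription factor table, with percent identity to a database protein, gave the family names. Groups came from sample titles. Gene IDs were matched to RefSeq for 18238 entries. Testing covered the 13594 entries that reached 1 FPKM in 4 or more libraries, on the log2(FPKM + 1) scale, using limma 3.58.1 (R 4.3.3) with a trend and a single model of all libraries (15 residual degrees of freedom), Benjamini-Hochberg adjustment within each of 6 comparisons and a threshold of 0.05. Steps were tested on simulated data. Correlations used 100000 permutations. Libraries of a group correlated at 0.9604 to 0.9929. Low values that moved in steps, in 1044 entries, put relative depth at 0.974 to 1.01, by a selection that cannot show a library far apart. The labels' replicate numbers did not pair the libraries. The receptors and lists were chosen with earlier results of these data known. Named genes were up to 3 called higher and 3 called lower per list with the smallest adjusted p in IR against sham, up to 2 of each in the gavage comparisons, and a fixed set. The others named were chosen after their values were seen. Some genes of the lists are counted but not reported by name here. Alternatives changed the pseudocount, filter, scaling (TPM, median-ratio, quantile), groups fitted, replicate block, library weights and libraries included. Motifs were searched in RefSeq promoter windows of GRCm38.p6.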

Additional observations from a re-analysis of the deposited data

Results flagged for a closer look

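In 2 of 28 groups of receptor values, 1 library lay far from the others by Dixon's criterion, which chance would give in about 1 in 20 groups. Rxra was at 37.22 FPKM in IRLacz replicate 1, with the remaining 3 of the group from 31.13 to 32.11. The same library had the highest Hnf4a and Ppara values of its group, 164.5 and 12.1 FPKM. Rxrb was at 3.63 FPKM in IRLac replicate 3, while the other 4 lay between 14.53 and 18.93. That library had the highest Ppard value of its group, 9.59 FPKM.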

How the results depend on the processing

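The number of receptors called was 6 in IR against sham in every fit except 5 with a mean of at least 5 FPKM required, which leaves Hnf4g untested. With a replicate block, which adds the replicate number to the model, it stayed at 6 and entries called in that comparison were 10108, against 10276. Same-numbered libraries deviated together in 6 of 27 pairs (r over 0.1), with a median r of -0.07. Against sham, IRLacz had 4 to 6 and IRLac 4 to 6 receptors called, the 6 after median-ratio scaling. The values that changed sign were uncalled in every receptor. In IRLacz against IRLac these were Ppara (0.009 with the replicate block), Ppard (-0.172 with a pseudocount of 0.1), Rxrb (-0.057 with library weights) and Hnf4g (0.004 with a pseudocount of 0.1, 0.004 as TPM, 0.008 after median-ratio scaling, 0.011 with the replicate block). Rxrb against sham was -0.164 (median-ratio), -0.194 (quantile) and -0.007 (library weights) in IRLacz and 0.05 (library weights) in IRLac. Cdhr5 was -0.061 after median-ratio scaling. With single libraries left out, the ranges that crossed 0 were, in IRLacz against IRLac, -0.136 to 0.065 for Ppara, -0.281 to 0.796 for Ppard, -0.012 to 0.096 for Rxra, -0.054 to 0.527 for Rxrb, -0.071 to 0.105 for Hnf4a, -0.051 to 0.075 for Hnf4g and -0.036 to 0.123 for Nr1h4. In IRLacz against IR they were -0.153 to 0.022 for Hnf4a and -0.2 to 0.035 for Pparg, in IRLac against IR -0.156 to 0.007 for Hnf4a and -0.017 to 0.083 for Rxra, and for Rxrb -0.133 to 0.298 in IRLacz and -0.456 to 0.147 in IRLac against sham. The share of calls that were higher in IR against sham, 75.4%, was 55.5% after median-ratio and 44.4% after quantile scaling; in IRLacz against sham 80.8%, 56.6% and 45.5%, and in IRLac against sham 77.5%, 55.7% and 46.2%. Entries called in IRLacz against IR, 1809, were 885 with the 2 groups alone, 2978 with library weights and 606 without IR replicate 3. The 1 entry in IRLac against IR became 116 without IR replicate 5, and the 3 in IRLacz against IRLac became 490 without IRLac replicate 3. The causes were not tested. Depth is unknown, so precision at low FPKM, as for Hnf4g and Rxrg, cannot be stated.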
